A study of Mus musculus with 16 samples.

Results

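The genes described here are 9 stress kinase pathway genes of mouse liver: the TAO kinases Taok1, Taok2 and Taok3, the kinase scaffold Mapk8ip3, the MAP kinase-activated kinases Mapkapk2, Mapkapk3, Mknk1 and Mknk2, and the osmotic stress transcription factor Nfat5. They were chosen by name, and they were listed with results of these data already known, so their differences between the groups are given below as a description and not as a test. They are 9 of the 55487 genes in the deposited table, and all 9 passed the filter on low counts that left 14553 genes for testing. RNA-seq was carried out on liver of wild-type C57BL/6J mice aged 12 weeks, with 4 libraries in each of 4 groups. The mice were exposed to room air, sustained hypoxia, intermittent hypoxia, or overlap hypoxia, which combines the intermittent and the sustained exposure. Neither the oxygen levels nor the duration of the exposures is stated in the labels. The protocol text speaks of retinas while the tissue label is liver. All 6 hepatocyte markers looked for passed the filter and summed to between 53390 and 84760 CPM (counts scaled to a common library size) in every library, whereas 1 of 6 photoreceptor markers passed and that list summed to at most 10.8 CPM. Nothing in the labels says that the libraries of a group came from separate animals beyond a different number in each sample's description, so the spread below is the spread between these libraries.

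Stress-activated MAP kinase signalling runs through tiers of kinases. TAO kinases belong to the STE20 family and act at the top tier, where they activate the MAP2 kinases that in turn activate p38 and JNK, while scaffolds such as JIP3, the product of Mapk8ip3, hold the kinases of a JNK module together and link it to motor proteins. Below p38 and ERK stand kinases that are themselves switched on by a MAP kinase: MK2 and MK3 (Mapkapk2 and Mapkapk3), which act on RNA-binding proteins that control the stability of cytokine messages, and MNK1 and MNK2 (Mknk1 and Mknk2), which phosphorylate the cap-binding protein eIF4E. NFAT5, also called TonEBP, is the transcription factor of the response to osmotic stress and is a p38-responsive relative of the calcium-dependent NFAT factors.

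The sequence just before the annotated start is shown for the 4 genes with the highest folds over room air in intermittent hypoxia, so that the promoters of genes that moved together can be compared. The windows are the 250 bases before the RefSeq start on the GRCm38.p6 assembly, written 5′ to 3′ on the strand of the gene, and none of the 4 overlapped an annotated exon. Capitals mark the NFAT core GGAAA or its reverse complement TTTCC.
Mapk8ip3, chr17:24936978-24937227, minus strand: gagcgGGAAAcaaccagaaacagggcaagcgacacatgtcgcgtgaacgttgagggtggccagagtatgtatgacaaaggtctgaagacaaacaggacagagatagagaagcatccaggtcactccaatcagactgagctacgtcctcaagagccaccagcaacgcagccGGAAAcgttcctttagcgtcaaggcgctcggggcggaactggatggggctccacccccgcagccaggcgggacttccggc
Nfat5, chr8:107293220-107293469, plus strand: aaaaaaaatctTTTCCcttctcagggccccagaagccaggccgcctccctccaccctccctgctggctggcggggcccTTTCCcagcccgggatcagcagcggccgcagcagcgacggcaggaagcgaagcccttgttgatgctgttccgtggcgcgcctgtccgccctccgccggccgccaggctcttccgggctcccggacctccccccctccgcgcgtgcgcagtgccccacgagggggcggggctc
Mknk2, chr10:80676294-80676543, minus strand: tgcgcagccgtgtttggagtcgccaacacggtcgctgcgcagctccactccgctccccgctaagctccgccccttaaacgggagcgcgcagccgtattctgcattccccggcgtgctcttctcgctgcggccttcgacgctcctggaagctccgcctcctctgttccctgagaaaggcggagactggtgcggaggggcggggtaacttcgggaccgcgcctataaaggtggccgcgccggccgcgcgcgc
Taok2, chr7:126884968-126885217, minus strand: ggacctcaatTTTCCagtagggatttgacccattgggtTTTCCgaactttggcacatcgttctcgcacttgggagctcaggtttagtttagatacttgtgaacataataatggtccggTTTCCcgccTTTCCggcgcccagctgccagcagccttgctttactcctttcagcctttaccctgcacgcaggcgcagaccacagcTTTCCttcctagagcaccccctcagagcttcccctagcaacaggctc
The Mknk2 window lies inside the longer gene model that GENCODE M21 gives. The NFAT core was found 5 times in the Taok2 window, 2 times in those of Mapk8ip3 and Nfat5, and not at all in that of Mknk2. Over the 11 windows listed for the 9 genes it was present in 9, which belong to 7 genes, against 55.6% of all 32851 windows of the same length, so these letters are common.

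The core of the hypoxia response element, ACGTG on either strand, was searched for in the same windows. It was in 3 of the 11 windows, both starts of Mknk1 and 1 of the 2 starts of Mapkapk3, and in 16.6% of all windows. Each match was part of the E-box CACGTG, which contains ACGTG on both strands and was in 6.02% of all windows. The Mknk1 site is shown in capitals because the 2 starts of this gene share it, within the 66 bases of chr4:115839098-115839163 on the plus strand.
Mknk1: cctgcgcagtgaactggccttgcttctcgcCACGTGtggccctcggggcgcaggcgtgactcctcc
It begins 70 bases before the first of the starts. The AP-1 site TGANTCA and the CRE TGACGTCA were in none of the 11 windows, and in 6.75% and 1.55% of all windows, with both strands searched. The windows of the 9 genes had a GC content between 51.6% and 71.6%, against a median of 52.4% over all windows. A match of letters is a description of the sequence and not evidence of binding, and the absence of one says only that these letters are not in this window.

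Levels are given as CPM on library totals scaled with edgeR's TMM method (trimmed mean of M values), and as RPKM, the same CPM divided by the kilobases of annotated exon, where genes are compared with each other. Total counts were between 10940253 and 64789587 per library, the lowest being overlap hypoxia replicate 3. A gene is called when edgeR's quasi-likelihood test, fitted across all 14553 genes and 16 libraries, gave it an adjusted p under 0.05. The libraries also differed in makeup. Ribosomal RNA took 18.5% to 34.8% of the counts in the 4 intermittent hypoxia libraries, against 1.57% to 10.2% in room air, 1.55% to 2.77% in sustained hypoxia and 2.53% to 16.8% in overlap hypoxia. Mitochondrially encoded transcripts took 6.23% to 11.7% in intermittent hypoxia, 1.18% to 2.75% in room air, 1.43% to 1.73% in sustained hypoxia and 2.54% to 7.17% in overlap hypoxia. Both shares therefore separate intermittent hypoxia from room air completely, and their part in the results was not tested beyond the fits given below.

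Most of the 9 genes were higher in intermittent hypoxia than in room air. In that comparison 6 were called higher (Mknk1, Mknk2, Taok2, Taok3, Mapk8ip3 and Nfat5) and 1 lower (Mapkapk3), while Taok1 and Mapkapk2 were not called. Over all genes tested, 18.9% were called higher and 18.3% lower, and nothing is read from the count because the genes were listed with this contrast known. The same 6 genes had every intermittent hypoxia library above every room air library, and Mapkapk3 had every one below, which held in 17.4% and 18.0% of all genes. The median log2 fold change of the 9 was 0.84, beside 0.03 over all genes. In bulk liver RNA, fewer cells of a type and less RNA per cell cannot be told apart.

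**Figure D1:**
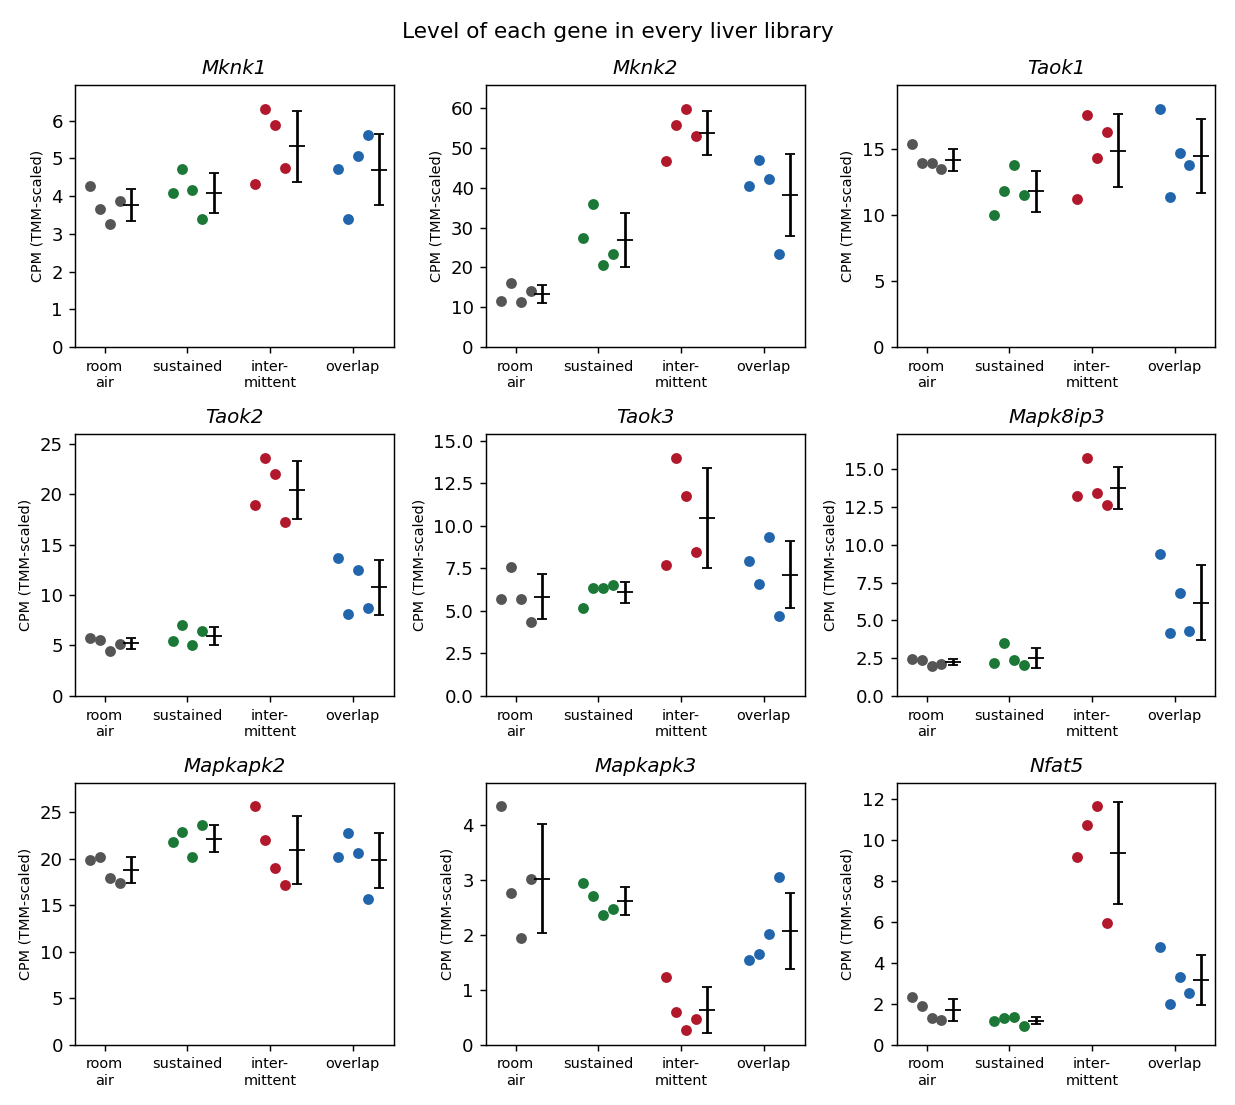
Each panel shows 1 gene, with 1 point per library (4 per group, left to right in replicate order), TMM-scaled CPM on the y axis from 0, and a black bar for mean ± SD beside each group. Taok2, Mapk8ip3 and Nfat5 have all 4 intermittent hypoxia points above all other points, Mapkapk3 has them below all others, and Taok1 and Mapkapk2 overlap room air.

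Among the TAO kinases, which phosphorylate MAP2 kinases, Taok2 and Taok3 were called higher in intermittent hypoxia and Taok1 was not. Gene positions are given on GRCm38 from GENCODE M21. Taok2 (chr7:126865678-126884703, minus strand) stood at 5.74, 5.54, 4.42 and 5.11 CPM in room air and at 18.9, 23.6, 21.97 and 17.2 CPM in intermittent hypoxia (replicates 1 to 4). All 4 intermittent libraries lay far above room air, and the mean went from 5.20 ± 0.582 to 20.4 ± 2.89 CPM (SD, n = 4), a log2 fold change of 1.97 (SE 0.18). In overlap hypoxia the values were 13.7, 8.15, 12.5 and 8.67 CPM, all between those of the other 2 groups. Sustained hypoxia, at 5.40, 6.99, 5.06 and 6.43 CPM, overlapped room air and lay below every overlap library.

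Taok1 (chr11:77529162-77607815, minus strand) was at 15.4, 13.95, 13.97 and 13.5 CPM in room air and at 11.2, 17.6, 14.3 and 16.3 CPM in intermittent hypoxia, so the intermittent libraries lay on both sides of the controls. Its log2 fold change was 0.07 (SE 0.16), and it was not called in any of the 5 comparisons. Taok3 (chr5:117120129-117275219, plus strand) had 5.70, 7.59, 5.69 and 4.37 CPM in room air and 7.67, 14, 11.7 and 8.47 CPM in intermittent hypoxia, a log2 fold change of 0.84 (SE 0.22). Its groups were separated by a narrow gap, since intermittent replicate 1 was just above room air replicate 2, and its overlap hypoxia libraries, at 4.68 to 9.35 CPM, overlapped room air. Per length of annotated exon, Taok1 was the highest of the 3 in room air at 1.14 ± 0.0672 RPKM, with Taok2 at 0.558 ± 0.0625 and Taok3 at 0.523 ± 0.119 RPKM (SD, n = 4). This order depends on the length used. The annotated exon bases and the longest transcript were 12421 and 12409 for Taok1, 9316 and 4985 for Taok2, and 11159 and 4467 for Taok3. In intermittent hypoxia Taok2, at 2.19 ± 0.310 RPKM (SD, n = 4), was above Taok1 at 1.20 ± 0.223 RPKM, and the lowest Taok2 library (1.85 RPKM) was above the highest of Taok1 (1.42 RPKM).

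Mapk8ip3 (chr17:24892153-24936977, minus strand), which encodes the JNK scaffold JIP3, showed the highest fold of the 9 genes in intermittent hypoxia. Room air held 2.47, 2.35, 2.003 and 2.11 CPM, and intermittent hypoxia 13.2, 15.8, 13.5 and 12.6 CPM. The means were 2.24 ± 0.215 and 13.8 ± 1.38 CPM (SD, n = 4), a 6.15-fold difference with a log2 fold change of 2.62 (SE 0.24). Overlap hypoxia took an intermediate and wider range with 9.42, 4.14, 6.82 and 4.30 CPM, above every room air and sustained library and below every intermittent one. Sustained hypoxia, at 2.19, 3.51, 2.37 and 2.08 CPM, overlapped room air.

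Part of the Mapk8ip3 exon sequence is not its own: 10.7% of its exon bases lie in exons of Eme2 on the same strand, and 9.75% lie opposite exons of Mrps34 and Nme3. Of its 50-base words, 9.65% also occur in another gene's transcripts, so its reads could be split in the estimation. None of these neighbours was called higher with it. Eme2, a nuclease subunit gene, had a log2 fold change of 0.32 (SE 0.24) and was not called in intermittent hypoxia (edgeR adjusted p = 0.314). Nme3, a nucleoside diphosphate kinase gene, fell by 1.00 (SE 0.17, adjusted p = 0.000176), and Mrps34 was also called lower (-0.35, SE 0.12, adjusted p = 0.0293). The labels do not say whether strand was used in counting, so reads of the antisense genes cannot be told apart. For the other 8 genes at most 0.549% of words (Nfat5) were shared, and the exon bases opposite another gene were 5.78% in Mknk1 and 0.757% in Taok1.

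Mapkapk2 (chr1:131053700-131097826, minus strand) was the highest of the 9 genes per length in room air, at 6.19 ± 0.463 RPKM (SD, n = 4), and was called in none of the 5 comparisons. Its values were 19.8, 20.2, 17.9 and 17.4 CPM in room air, 21.9, 22.9, 20.3 and 23.6 in sustained hypoxia, 25.7, 21.99, 19.0 and 17.2 in intermittent hypoxia, and 20.3, 22.7, 20.6 and 15.7 in overlap hypoxia. All sustained libraries were just above room air (log2 fold change 0.24, SE 0.14, not called), while the other exposures overlapped it.

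Mapkapk3 (chr9:107254927-107289877, minus strand), which encodes MK3, was the only one of the 9 genes called lower in intermittent hypoxia. Room air had 4.34, 2.77, 1.95 and 3.03 CPM and intermittent hypoxia 1.23, 0.591, 0.262 and 0.465 CPM, a log2 fold change of -2.21 (SE 0.36). The intermittent values rest on 6 to 50 counts per library, the lowest counts of any of the 9 genes. Overlap hypoxia, with 1.54, 1.66, 2.01 and 3.06 CPM, overlapped room air (log2 fold change -0.55, SE 0.34) and was above every intermittent library. Sustained hypoxia was at 2.37 to 2.95 CPM, inside the range of room air. Mapkapk2 exceeded Mapkapk3 per length in each group, with 6.19 against 0.545 RPKM in room air and 6.89 against 0.115 RPKM in intermittent hypoxia.

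Mknk2 (chr10:80665327-80678112, minus strand), which encodes MNK2, had a higher level than room air in all 3 exposures. Room air libraries had 11.6, 16.2, 11.2 and 14.2 CPM. Sustained hypoxia had 27.5, 35.97, 20.5 and 23.4 CPM, overlap hypoxia 40.3, 47.0, 42.2 and 23.3, and intermittent hypoxia 46.7, 55.7, 59.8 and 52.8. The means therefore went in the order room air, sustained, overlap, intermittent. Every exposed library was above every room air library, but sustained and overlap hypoxia overlapped each other, and so did overlap and intermittent hypoxia. The log2 fold changes against room air were 2.01 (SE 0.20) in intermittent, 1.52 (SE 0.20) in overlap and 1.01 (SE 0.20) in sustained hypoxia, the last of which was not called. Per length, Mknk2 was the highest of the 9 genes in intermittent hypoxia at 13.8 ± 1.42 RPKM (SD, n = 4), against 3.42 ± 0.597 RPKM in room air.

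Mknk1 (chr4:115839198-115879250, plus strand), whose product acts on the same eIF4E site, had a smaller difference. Its libraries had 4.27, 3.65, 3.27 and 3.87 CPM in room air and 4.33, 6.31, 5.90 and 4.74 CPM in intermittent hypoxia, a log2 fold change of 0.49 (SE 0.19). Intermittent replicate 1 was barely above room air replicate 1. The call of Mknk1 held in 11 of 27 alternative analyses, the fewest of the 7 genes called. Overlap hypoxia at 3.41 to 5.61 CPM and sustained hypoxia at 3.40 to 4.71 CPM overlapped room air.

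Nfat5 (chr8:107293470-107379517, plus strand), the osmotic stress transcription factor, was the lowest of the 9 genes per length in room air at 0.0919 ± 0.0291 RPKM (SD, n = 4). Its libraries had 2.35, 1.90, 1.28 and 1.22 CPM in room air and 9.17, 10.7, 11.6 and 5.96 CPM in intermittent hypoxia, with all of the latter above all of the former. The log2 fold change was 2.46 (SE 0.29), a 5.51-fold difference. Overlap hypoxia, with 4.78, 1.97, 3.32 and 2.51 CPM, overlapped room air (log2 fold change 0.90, SE 0.28), and no overlap library reached an intermittent one. That difference was not called by edgeR, but it was in 5 of the 27 alternatives: DESeq2, the replicate block, no filter on low counts, and leaving out room air replicate 1 or overlap hypoxia replicate 2. Sustained hypoxia had 1.17, 1.29, 1.33 and 0.932 CPM, overlapping the lower end of room air, with a log2 fold change of -0.51 (SE 0.29).

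**Figure D2:**
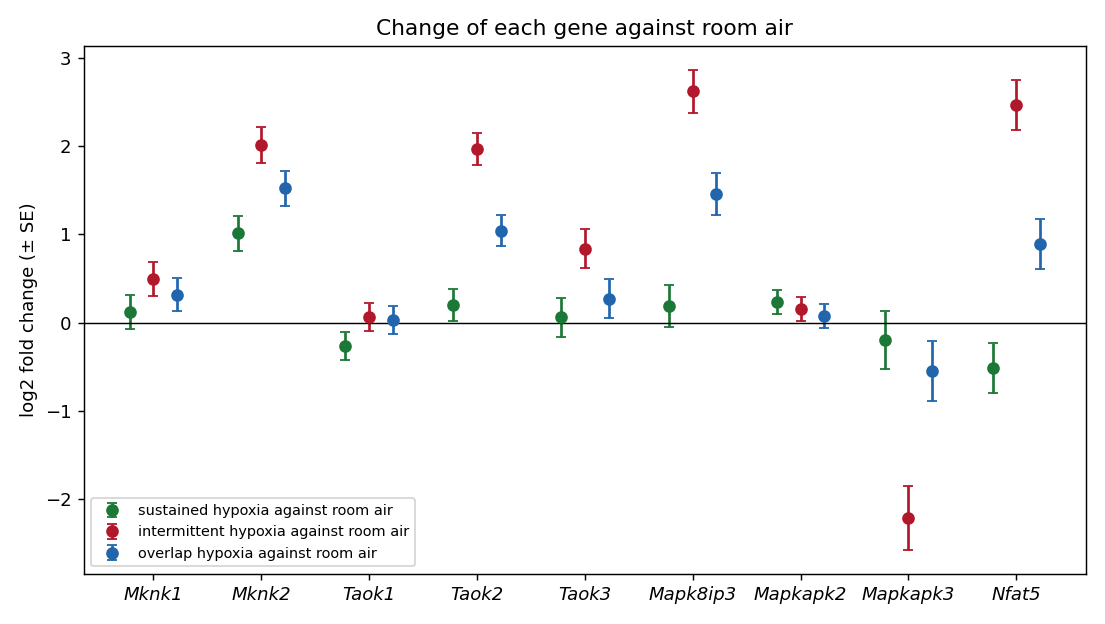
Log2 fold change against room air (y axis, point ± SE, n = 4 libraries per group) for each of the 9 genes, with 1 colour for each exposure; the 3 comparisons share the room air libraries. Mapk8ip3 (2.62), Nfat5 (2.46), Mknk2 (2.01) and Taok2 (1.97) are highest in intermittent hypoxia, and Mapkapk3 (-2.21) is the only point far below 0.

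In overlap hypoxia, which adds sustained to intermittent exposure, fewer of the genes differed from room air. Mknk2, Taok2 and Mapk8ip3 were called higher, with log2 fold changes of 1.52 (SE 0.20), 1.04 (SE 0.18) and 1.46 (SE 0.24), and none of the 9 was called lower. Called higher over all genes were 3.41% and lower 2.89%, and groups that did not overlap in that direction were found for 3 of the 9 and 6.58% of all genes. The median log2 fold change of the 9 was 0.32, beside 0.03 over all genes. In sustained hypoxia edgeR called none of the 9, and 1 (Mknk2) had an unadjusted p under 0.05. There 0.0206% of all genes were called higher. An unadjusted p under 0.05 was held by 1835 of all genes without intermittent replicate 3 and by 1910 without overlap replicate 2. The groups did not overlap for Mknk2 and Mapkapk2, both higher, which held for 4.6% of all genes. DESeq2, limma-voom and 3 other alternatives called Mknk2 in that comparison. It was also called without overlap hypoxia replicate 2 or replicate 4, which are not part of that comparison. The 3 comparisons against room air share their controls.

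Overlap hypoxia was set directly against the single exposures. Against intermittent hypoxia, Taok2 (log2 fold change -0.93, SE 0.18), Mapk8ip3 (-1.16, SE 0.23) and Nfat5 (-1.57, SE 0.28) were called lower and Mapkapk3 (1.66, SE 0.37) higher, where 2.95% and 3.2% of all genes were called. The direction is the reverse of the intermittent change in each of the 4, and the comparisons share the intermittent libraries. Without overlap hypoxia replicate 4, or with the other 2 groups kept out of the fit, none of the 4 was called. Of these 4, Mapkapk3 was also lost without intermittent hypoxia replicate 2 or replicate 3. Against sustained hypoxia, Mapk8ip3 (1.27, SE 0.23) and Nfat5 (1.41, SE 0.29) were called higher in overlap hypoxia, where 0.137% of all genes were called higher, and Taok2 (0.84, SE 0.18) had groups that did not overlap and was not called by edgeR here. It was called in 9 of the 27 alternatives, among them DESeq2 and limma-voom. With the other 2 groups kept out of the fit, or with the length and GC offsets described below, neither was called. Leaving out a library gave between 0 and 3 calls in that comparison, with 0 without room air replicate 2, sustained replicates 1, 3 or 4, intermittent replicates 1 or 3, or overlap replicates 1 or 3, and 1 without room air replicate 3, sustained replicate 2 or overlap replicate 4.

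The order of the libraries was compared between the genes and the makeup within each group, and it matched in some groups and not in others. In overlap hypoxia, Taok1, Taok2, Mapk8ip3 and Nfat5 were each highest in replicate 1, then 3, 4 and 2. The mitochondrial share of those libraries ran 7.17% in replicate 3, 5.0% in replicate 1, 2.77% in replicate 4 and 2.54% in replicate 2. Mknk2 did not follow it, being highest in overlap replicate 2 and lowest in replicate 4. In intermittent hypoxia, Taok2 and Mapk8ip3 were highest in replicate 2, then 3, 1 and 4, which is the order of the mitochondrial share (11.7%, 8.11%, 7.73% and 6.23%). Nfat5 there ran 3, 2, 1 and 4, the order of the ribosomal share (34.8%, 25.6%, 22.1% and 18.5%), and in room air it followed the mitochondrial share and the levels of the nuclear RNAs Malat1 and Neat1. In room air, Taok2 and Mapk8ip3 ran 1, 2, 4 and 3, where the mitochondrial share ran 1, 2, 3 and 4. In sustained hypoxia the share ran 4, 2, 3 and 1, and Taok2 (2, 4, 1, 3), Mapk8ip3 (2, 3, 1, 4) and Nfat5 (3, 2, 1, 4) each had another order. With 4 libraries a group these orders are a description only.

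**Figure D3:**
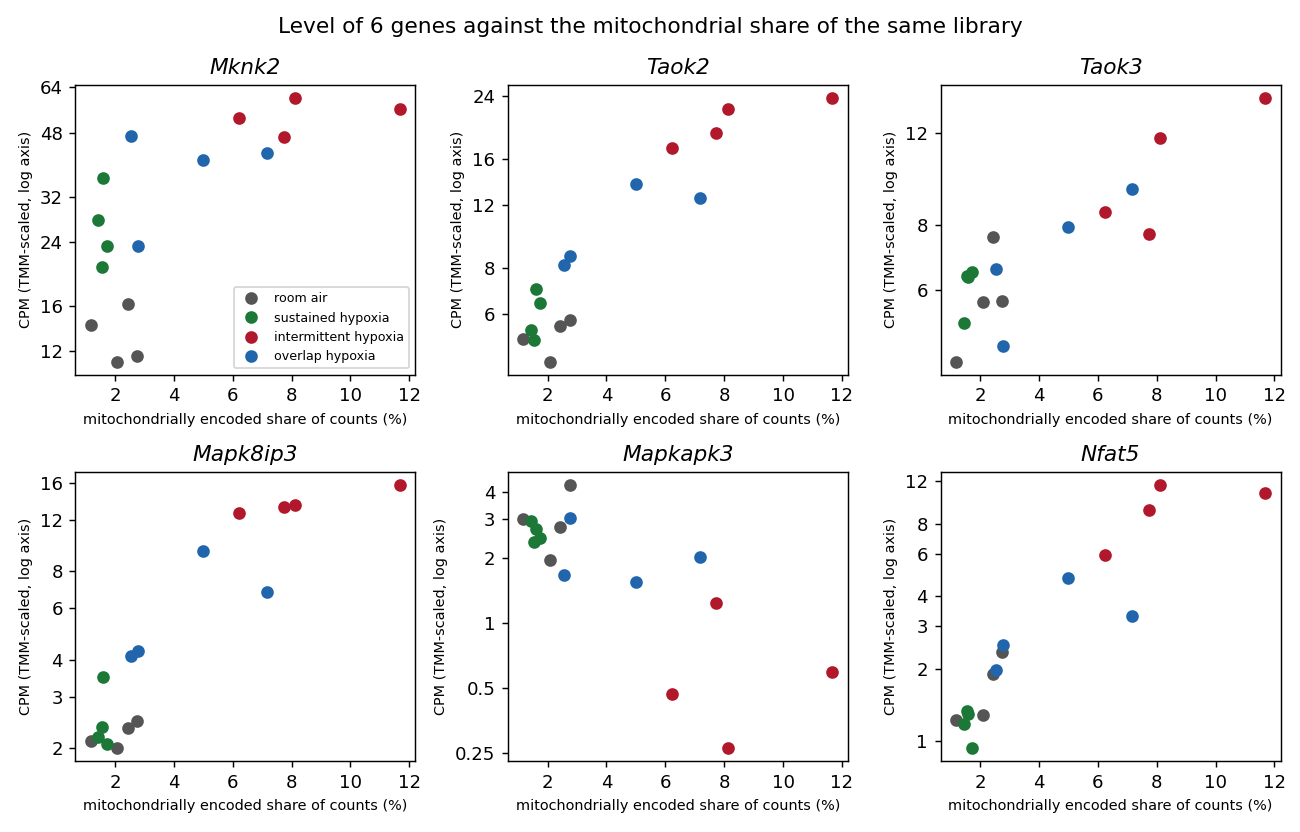
Level of 6 of the genes (y axis, TMM-scaled CPM on a log axis) against the share of counts from mitochondrially encoded transcripts (x axis, %), with 1 point per library coloured by group. Overlap hypoxia replicates 1 and 3, at 5.0% and 7.17%, hold the higher overlap values of Taok2, Mapk8ip3 and Nfat5, while Mknk2 at 2.54% reaches 47.0 CPM in an overlap library.

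Fits that carried these shares as covariates changed the calls in intermittent against room air. With the ribosomal share in the fit, 3 genes were called (Mknk2 2.50, SE 0.38; Taok2 1.67, SE 0.35; Mapk8ip3 2.50, SE 0.47, as log2 fold changes), and 77 of all genes were called in place of 5404. Nfat5 was then at 1.504 (SE 0.50). With the mitochondrial share, none of the 9 was called and 6 of all genes were. The values were then 1.83 (SE 0.37) for Mknk2, 1.85 (SE 0.39) for Mapk8ip3, 1.40 (SE 0.47) for Nfat5 and 1.26 (SE 0.28) for Taok2, with Mapkapk3 at -2.06 (SE 0.70). Taok3 came to -0.20 (SE 0.32). Because the shares of the intermittent and the room air libraries do not overlap, share and group cannot be told apart in these fits. In overlap against room air, Mknk2 (1.45, SE 0.23) and Mapk8ip3 (1.16, SE 0.25) were still called with the mitochondrial share in the fit, and Taok2 (0.78, SE 0.17) was not. There only overlap replicate 2, at 2.54%, lay below the highest room air share of 2.75%. Share and group are therefore hardly easier to tell apart in that fit.

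**Figure D4:**
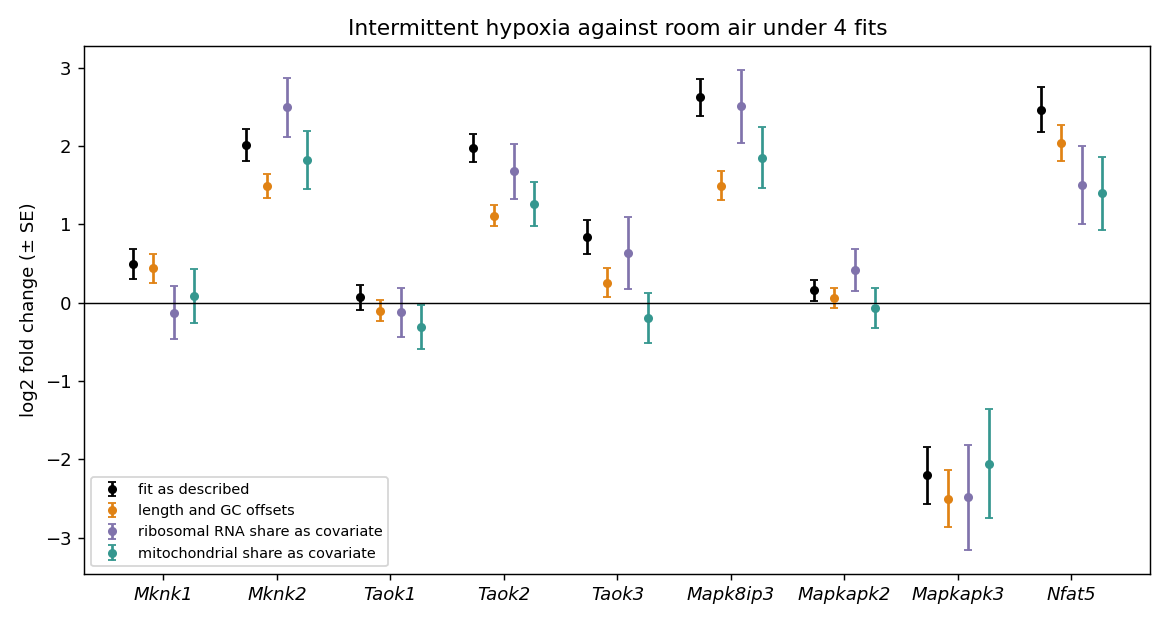
Log2 fold change in intermittent hypoxia against room air (y axis, point ± SE) for each gene under the fit used throughout and 3 alternatives, in 4 colours. Mknk2, Taok2, Mapk8ip3 and Nfat5 stay above 0 and Mapkapk3 below 0 in these 4 fits, whereas Mknk1 and Taok3 reach 0 or below in 1 covariate fit each.

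Of the 4 genes of highest fold, 3 have a long total of annotated exon, which counts the exons of all their transcripts. Nfat5 has 18378 annotated exon bases and Mapk8ip3 14558, longer than 99.0% and 97.2% of the genes tested, and Taok2, with 9316, is longer than 89.5%. The longest single transcripts are shorter, at 13443 bases for Nfat5, 7278 for Mapk8ip3 and 4985 for Taok2. Mknk2, with 3892 exon bases, is below the median of 4032, but the GC content of its longest transcript, 60.3%, is above that of 96.7% of genes. Offsets for length and GC content, fitted per library, lowered the intermittent log2 fold change to 1.49 (SE 0.19) for Mapk8ip3, 1.49 (SE 0.16) for Mknk2, 1.11 (SE 0.13) for Taok2 and 2.04 (SE 0.23) for Nfat5, all still called. Taok3, with 11159 exon bases, went to 0.26 (SE 0.19) and was no longer called, and neither was Mknk1 at 0.44 (SE 0.18). In overlap against room air the offsets gave 0.84 (SE 0.19) for Mapk8ip3, 1.14 (SE 0.16) for Mknk2 and 0.55 (SE 0.13) for Taok2, all still called. Taok1, with 12421 exon bases and a GC content of 40.6%, was not called with or without the offsets.

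The tier around the TAO kinases was looked at through lists of other pathway genes, taken by role. In intermittent hypoxia against room air 18.9% of all genes were called higher and 18.3% lower, which stands beside each count that follows. Of 16 MAP3 kinases tested 7 were called higher and 1 lower, with a median log2 fold change of 0.53. Examples are Map3k1 (1.43, SE 0.28, edgeR adjusted p = 0.000588), Map3k21 (1.74, SE 0.36, 0.000848) and Map3k3 (1.16, SE 0.25, 0.00113), kinases that feed JNK, p38 or ERK5 modules. Among other STE20 kinases, 7 of 15 were called higher and 1 lower (median 0.58), led by Mink1 (2.29, SE 0.32, adjusted p = 5.95e-05) and Map4k2 (1.56, SE 0.26, 0.000134), both upstream of JNK. In the next tier, of the 7 MAP2 kinases, Map2k7, an activator of JNK, was called higher (1.06, SE 0.24, adjusted p = 0.00162), as was Map2k2 (0.64, SE 0.16, 0.00338). Map2k1, an activator of ERK, was called lower (-0.88, SE 0.14, 0.000134), and the median was 0.13. Of 12 MAP kinases 5 were called higher and 1 lower (median 0.56), among them the JNK gene Mapk9 (0.70, SE 0.17, adjusted p = 0.00377) and the p38 gene Mapk11 (1.28, SE 0.44, 0.0269), the latter at a mean of 0.893 CPM.

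Of 12 other scaffolds and adaptors, 5 were called higher and 1 lower (median 0.43), where 18.9% and 18.3% of all genes were. Ksr1, a scaffold of the ERK module, had the highest fold (2.78, SE 0.65, adjusted p = 0.00231) but at means of only 0.480 and 0.0655 CPM, Arrb1, which encodes beta-arrestin 1, was higher (1.13, SE 0.29, 0.00497), and Lamtor3, which anchors MEK1 at the late endosome, was lower (-0.58, SE 0.15, 0.00577). Beside MK2, MK3 and the MNKs, none of 6 other MAP kinase-activated kinases was called by edgeR or limma-voom. DESeq2, which called 5802 of all genes, called 1 of the 6, and 1 had an unadjusted p under 0.05 in edgeR. Rps6ka3 (RSK2) was nearest at 0.53 (SE 0.21, adjusted p = 0.0554). Of 11 phosphatases that switch MAP kinases off, Dusp7 was called higher (0.96, SE 0.36, 0.0428) and Ppm1a lower (-0.44, SE 0.12, 0.00799).

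The genes for MNK substrates and translation initiation, taken as 1 list, moved in both directions. Of 12 MNK substrates and initiation factors 3 were called higher and 5 lower (median -0.05), where 18.9% and 18.3% of all genes were. The MNK target Eif4e itself was lower, at 20.1 against 30.8 CPM (-0.61, SE 0.14, adjusted p = 0.00159), and so was the helicase gene Eif4a2 (-0.86, SE 0.15, 0.000191), while Eif4ebp2, which encodes a protein that sequesters eIF4E, was higher (1.17, SE 0.18, 8.69e-05). Of 9 genes for MK2 and MK3 substrates 3 were called higher and none lower (median 0.26): Tsc2 (0.77, SE 0.17, 0.00156), Pabpc1 (0.67, SE 0.17, 0.00404) and the mRNA decay factor Zfp36l1 (0.90, SE 0.23, 0.00571). Among 14 MAP kinase-responsive transcription factors 6 were called higher and none lower (median 0.56), with Mef2d (1.62, SE 0.22, 2.55e-05), Elk4 (1.21, SE 0.18, 5.16e-05) and the AP-1 member Fosl2 (1.60, SE 0.32, 0.000709) in front.

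NFAT5 is best known for raising the transporters and enzymes that build up organic osmolytes, and its list split. Of 12 osmotic target genes 5 were called higher and 2 lower in intermittent hypoxia (median 0.44), where 18.9% and 18.3% of all genes were. Slc6a6, the taurine transporter, went from 6.62 to 13.8 CPM (1.06, SE 0.19, adjusted p = 0.00027) and Pnpla6, which makes the osmolyte glycerophosphocholine, from 3.63 to 9.05 CPM (1.31, SE 0.24, 0.000312). Akr1b3, the aldose reductase that makes sorbitol, was lower, at 4.52 against 9.59 CPM (-1.08, SE 0.21, 0.000598). Of the other NFAT factors Nfatc1 was called higher (0.97, SE 0.20, 0.000985), and Nfatc3 (0.04, SE 0.15, 0.843) and Nfatc4 (1.36, SE 0.88, 0.235) were not called.

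In overlap against room air edgeR called 5 of the 129 genes of these 12 lists, where 3.41% of all genes were called higher and 2.89% lower. Those called were 2 STE20 kinases, 1 transcription factor and Eif4ebp2 of the translation list higher, and 1 MAP2 kinase lower. DESeq2 called 12 of the 129 genes and limma-voom 11, in place of these 5. Over all 14553 genes these tools called 1466 and 1374. In sustained hypoxia edgeR called none of the 129, of which 17 had an unadjusted p under 0.05. Over all genes, 1835 had one in the edgeR fit without intermittent replicate 3 and 1910 without overlap replicate 2. DESeq2 and limma-voom called 2 each of the 129 there, and 175 and 248 of all genes. Against intermittent hypoxia, overlap hypoxia had 3 of the 12 osmotic target genes, and 1 each of the MAP3 kinases, STE20 kinases, scaffolds and transcription factors, called lower by edgeR, where 2.95% of all genes were. These are 7 of the 129 genes, in place of which DESeq2 called 14 and limma-voom 4. Of the osmotic targets DESeq2 called 4 and limma-voom 1. Over all genes DESeq2 called 1584 and limma-voom 494 in that comparison. The lists were written with earlier results in view, their counts come from the fit without the ribosomal or mitochondrial share, and shares of 18.9% higher and 18.3% lower over all genes stand beside the intermittent counts.

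**Figure D5:**
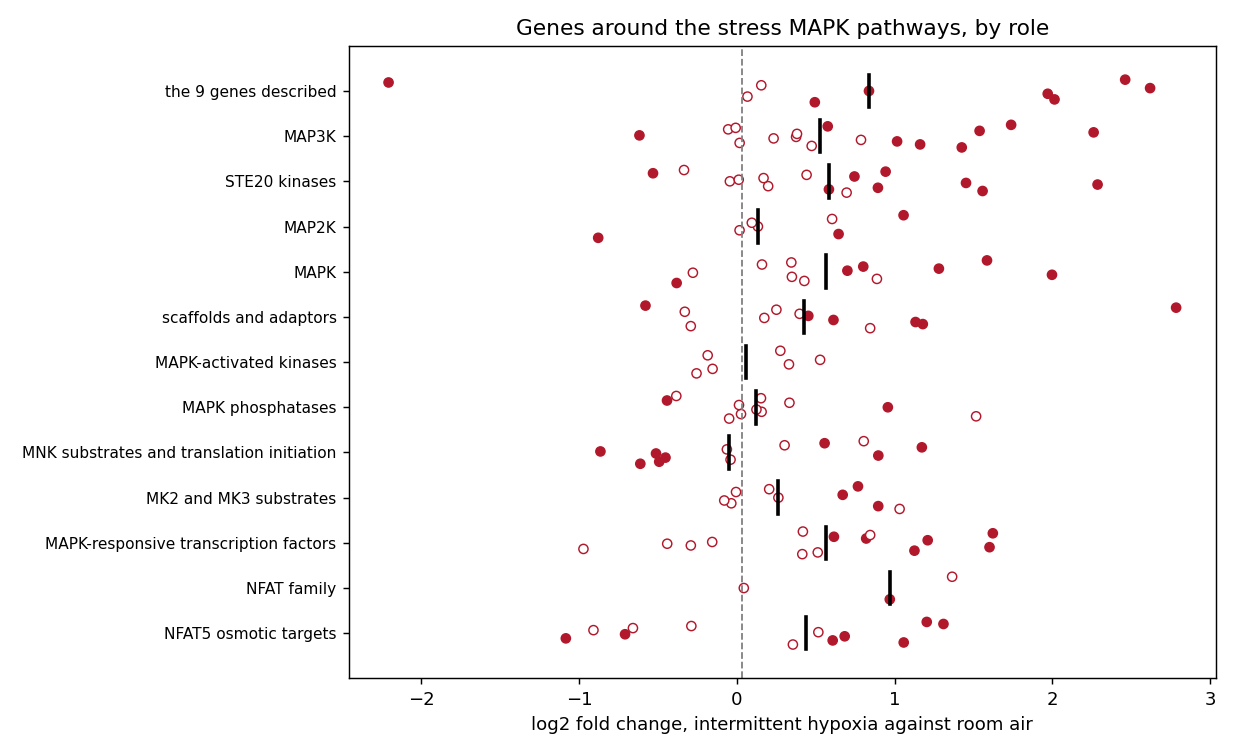
Log2 fold change in intermittent hypoxia against room air (x axis) of every tested gene of the 9 described and of 12 lists by role (rows), with filled points for genes called by edgeR, a black bar for each list's median and a dashed line for the median of all genes (0.03). The lists of MAP3 kinases, STE20 kinases and MAP kinases have medians between 0.53 and 0.58. The list of MNK substrates and translation initiation lies on both sides of 0 with a median of -0.05.

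Most markers of Kupffer cells were lower in intermittent and overlap hypoxia, and markers of sinusoidal endothelium moved in both directions. Of 7 Kupffer cell markers 6 were called lower in intermittent hypoxia and 6 in overlap hypoxia, where 18.3% and 2.89% of all genes were. The summed level of these markers was 70.8 to 126 CPM in room air, 23.5 to 50.3 in intermittent, 29.6 to 34.2 in overlap and 47.3 to 82.9 in sustained hypoxia. Of 7 markers of sinusoidal endothelium, 2 were called higher and 1 lower in intermittent hypoxia against room air, where 18.9% and 18.3% of all genes were. Stab2 was at 7.03 CPM in room air, 14.4 in intermittent and 7.58 in overlap hypoxia, and Stab1 at 12.5, 21.9 and 12.3 CPM. The rest of the list did not share this rise. In the same order of groups, Clec4g was at 42.6, 26.7 and 16.7 CPM and Oit3 at 13.5, 12.2 and 7.49 CPM. Kdr was at 13.5, 13.6 and 7.61 CPM, Pecam1 at 5.48, 5.88 and 3.78 CPM, and Lyve1 at 1.82, 1.75 and 1.81 CPM. In overlap hypoxia 3 of the 7 were called lower against room air, where 2.89% of all genes were. Against intermittent hypoxia 5 were called lower (median log2 fold change -0.72), where 2.95% of all genes were. It is the comparison in which Taok2, Mapk8ip3 and Nfat5 were called lower. The summed level of the 7 markers was 83.9 to 103 CPM in room air, 65.6 to 87.7 in sustained, 88.2 to 105 in intermittent and 39.6 to 74.1 in overlap hypoxia. None of the markers of either list was at 0 in all libraries. Mapkapk3 had a log2 fold change against room air of -2.21 (SE 0.36) in intermittent and -0.55 (SE 0.34) in overlap hypoxia. The overlap value rests on as few as 23 counts in a library, and a link to the Kupffer markers was not tested. The part of the cell makeup in the levels of the 9 genes was not tested. Of 4 RNAs tested that are known to be kept in the nucleus, 3 were called higher in intermittent hypoxia, where 18.9% of all genes were. Among them was Neat1 (1.83, SE 0.41, edgeR adjusted p = 0.00299), while Malat1 was at 561 ± 442 against 114 ± 88.7 CPM (SD, n = 4) and not called (adjusted p = 0.0789).

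The mean standardised profile of the 9 over the 16 libraries was correlated with the log2 CPM of other genes. The search ran over 6826 tested genes outside the 9 that averaged 5 CPM or more. Genes without a symbol or with a Gm or Rik name were left out. Most like the 9 were Luc7l3, a splicing factor gene (Pearson r 0.977), Strn4, which encodes a striatin (0.972), Zfp592, a zinc finger gene (0.972), Nlrp6, an inflammasome sensor gene (0.972), and Mink1, the STE20 kinase named above (0.971). Most like Nfat5 alone were Arhgef12, a RhoA exchange factor gene (0.976), Fnbp4, which encodes a formin-binding protein (0.975), and Srrm2, a nuclear speckle component (0.971). The levels of Srrm2 went from 11.5 CPM in room air and 12.1 in sustained hypoxia to 21.3 in overlap and 45.1 in intermittent hypoxia, in the order of Mapk8ip3 and Taok2. These correlations run over libraries of 4 groups that differ in the makeup given above and are a description.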

How the data were processed

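RNA-seq of 16 mouse liver libraries (4 in each of 4 groups) was used as 1 deposited table of expected counts, in which the authors shared reads that map to several genes by estimation. The reference was GRCm38, with Bowtie 1.3.0 and RSEM, per the submitters' processing notes. The sources used here give no annotation release, read length or strand. Of the nonzero values 49.2% were not whole, and counts were rounded.

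Symbols and exons came from GENCODE M21 (55227 identifiers matched) and promoters from RefSeq GRCm38.p6. In R 4.3.3 with edgeR 4.0.16, filterByExpr and TMM were applied, and glmQLFit and glmQLFTest were run on all libraries with a Benjamini-Hochberg adjusted p threshold of 0.05. The code was tested on simulated data. Alternatives used DESeq2 1.42.0, limma 3.58.1, other scalings, no filter, covariates, offsets, a replicate block and leaving out each library.

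The 9 genes, the lists and their choice were made with earlier results of these data known. All 9 genes are named, with up to 3 genes of lowest p in intermittent hypoxia from each list, and the genes of most similar profile (log2 CPM with a prior count of 2). Total counts were 10940253 to 64789587 per library. None of the 24 library pairs within groups looked like a duplicate, and pairs between groups were not checked.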

Additional observations from a re-analysis of the deposited data

Results flagged for a closer look

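In sustained hypoxia, Taok3 had 1 library apart from the other 3. Replicate 1 was at 5.19 CPM, and the nearest of the others was at 6.36 CPM, a gap of 0.891 of the range of the group. All 4 values lay within the range of room air. The 9 genes in 4 groups gave 36 sets of 4 libraries that were looked at, and chance alone sets a library apart in about 1 of 20 sets.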

How the results depend on the processing

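Each of the 5 comparisons was repeated under 27 alternatives, of which the removal of ribosomal and mitochondrial genes before scaling and the mitochondrial share as a covariate were chosen after seeing the data. In intermittent against room air, 7 genes were called; 3 were called with the ribosomal share as a covariate and 0 with the mitochondrial share, where the cause was not tested, and leaving out 1 library gave 6 to 7. Mknk1 reversed to -0.13 with the ribosomal share and Taok3 to -0.20 with the mitochondrial share. In overlap against room air, 3 genes were called and leaving out 1 library gave 3 to 4. In sustained hypoxia, 0 were called, and 1 (Mknk2) without the filter, with DESeq2, with limma-voom, with only the groups compared and with the replicate block; leaving out 1 library gave 0 to 1. In overlap against intermittent hypoxia, 4 were called and 0 with only the groups compared (fewer libraries), with the ribosomal share or with the mitochondrial share, and leaving out 1 library gave 0 to 4. In overlap against sustained hypoxia, 2 were called and 0 with only the groups compared, the ribosomal share, the mitochondrial share or the length and GC offsets, and leaving out 1 library gave 0 to 3. The replicate block gave 6, 4, 1, 4 and 3 calls in these 5 comparisons. With each gene's group mean taken off, same-numbered libraries of different groups correlated at -0.103 to 0.183 (median 0.0369). Libraries of different groups and different numbers correlated at -0.22 to 0.198 (median -0.0198). The numbers were therefore not taken to pair the libraries. Calls over all genes went from 5404 to 77 (ribosomal share) and 6 (mitochondrial share) in intermittent against room air. In overlap against room air they went from 916 to 46 with the mitochondrial share, 361 with the ribosomal share and 1466 with DESeq2, and upper-quartile scaling gave 576 higher and 309 lower in place of 496 and 420. In sustained against room air they went from 7 to 175 with DESeq2 and 248 with limma-voom, in overlap against intermittent from 895 to 0 with only the groups compared, 4 with the ribosomal share and 1584 with DESeq2, and in overlap against sustained from 24 to 0 with either share, 896 with DESeq2 and 1224 with limma-voom. Leaving out 1 library gave 4292 to 5635 calls over all genes in intermittent against room air. It gave 174 (without room air replicate 3) to 1186 (without overlap replicate 2) in overlap against room air, 2 to 57 in sustained against room air, and 16 (without overlap replicate 4) to 1406 (without intermittent replicate 4) in overlap against intermittent hypoxia. In overlap against sustained hypoxia it gave 0 by edgeR (without overlap replicates 1 or 3 or sustained replicates 1 or 4, with 2009 at an unadjusted p under 0.05 in the first of these), and up to 1547 (without overlap replicate 2), so the shares of all genes called given beside the members move as widely. Mapkapk3 in intermittent hypoxia, at 6 to 50 counts, is the value most limited by depth.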
